A study of Mus musculus with 16 samples.

Results

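The genes examined here encode mitochondrial fatty acid oxidation, and their transcripts were measured in CD4+ T cells of WT and Aim2-/- mice. They were found by symbol, and each matched 1 of the 53090 genes quantified, which gave 10 members. They encode the carnitine shuttle (Cpt1a, Slc25a20 and Cpt2), the acyl-CoA dehydrogenases for long and medium chains (Acadvl, Acadl and Acadm), both subunits of the trifunctional protein (Hadha and Hadhb), and the route by which electrons leave the dehydrogenases (Etfa and Etfdh). RNA was sequenced from 16 libraries, 4 in each of 4 groups. WT Tn and Aim2-/- Tn were naïve CD4+ T cells from the spleen that were isolated and not cultured. WT Treg and Aim2-/- Treg were CD4+ T cells of the same genotypes after 48 h (2 days) with anti-CD3 and anti-CD28 antibodies, recombinant human TGFβ and recombinant mouse IL-2. Aim2 encodes a cytosolic sensor of double-stranded DNA, and the Aim2-/- mice were deficient in it, on a C57BL/6 background; both strains were kept together and matched for age and sex per the study's methods. The labels give no age or sex and do not tie a library to a mouse. P-values therefore measure the spread between libraries, which may be technical.

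Fatty acids enter oxidation in the mitochondrial matrix, and long chains need carnitine to cross the inner membrane. Cpt1a on the outer membrane makes the acylcarnitine and is inhibited by malonyl-CoA, Slc25a20 carries it across the inner membrane, and Cpt2 turns it back into acyl-CoA. Each turn of the cycle then starts with an acyl-CoA dehydrogenase, whose electrons pass to the electron transfer flavoprotein and from there, through Etfdh, to ubiquinone. Naïve T cells and regulatory T cells are known for a greater reliance on this oxidation than effector T cells, which build membranes and favour fatty acid synthesis. The question put to these data was how the transcripts of the pathway changed when naïve cells were activated in Treg conditions, and whether Aim2 loss went with a change in either state.

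The depth ranged from 22516394 to 34533297 counts per library, so that 3 counts, the smallest signal taken as measurable, stood for 0.0869 to 0.133 CPM, the count of a gene scaled to a common library total. This floor covers counting error only. All values below are CPM scaled by TMM factors, a share of a library's RNA and not an amount per cell. In such bulk samples, fewer cells of a type and less RNA per cell cannot be told apart. The targeted gene, Aim2, had a mean of 35.1 CPM in WT Tn and 7.41 in Aim2-/- Tn, and of 39.9 and 9.20 in the corresponding Treg groups. It was 4.72-fold lower in Tn and 4.35-fold lower in Treg, so that reads of the gene remained in the Aim2-/- libraries. The summed level of 8 T cell markers was 4257 to 5427 CPM in Tn and 2397 to 2660 CPM in Treg, and 6 of the 8 fell with culture in WT and 7 of the 8 in Aim2-/- cells. The 7 naïve markers fell from 4485 to 6191 CPM in Tn to 667 to 1083 CPM in Treg. The sum of 9 markers of culture and Treg cells, Foxp3 among them, went from 176 to 228 CPM to 4431 to 5573 CPM. Of these 9, 8 rose and 1 did not pass the test in each genotype. Markers of other cells were low and lower after culture. The 4 NK markers summed to 16.3 to 37.1 CPM in Tn and 1.63 to 8.04 CPM in Treg, with Ncr1 and Klrb1c at no more than 3 counts in the Treg libraries, the 8 myeloid markers to 13.6 to 21.4 and 1.82 to 3.92 CPM, the 2 CD8 markers to 8.94 to 12.2 and 2.26 to 4.02 CPM, the 5 erythroid markers to 1.23 to 7.94 and 0.0337 to 0.185 CPM, and the 6 B cell markers to 1.54 to 3.12 and 0.371 to 1.21 CPM. In Tn some of these sums also separated the genotypes without overlap. The erythroid sum was 1.23 to 3.97 CPM in WT Tn and 5.13 to 7.94 CPM in Aim2-/- Tn, the B cell sum 1.54 to 2.15 and 2.44 to 3.12 CPM, and the sum of the culture and Treg markers 176 to 197 and 214 to 228 CPM. The part of these markers in the changes with culture and in the genotype comparison was not tested.

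Culture in Treg conditions changed most of the 10 genes, in both directions and by modest amounts. Activation, time in culture, TGFβ and IL-2 came together in the Treg groups, so their parts cannot be told apart here. In WT cells 6 rose (Cpt2, Etfa, Acadl, Etfdh, Hadha and Acadvl), 2 fell (Cpt1a and Acadm), and Slc25a20 and Hadhb did not pass the test. In Aim2-/- cells the same 6 rose, Hadhb rose as well, and Cpt1a and Acadm fell. The test was edgeR's quasi-likelihood F test with adjusted p under 0.05. Over all genes tested it called 76.9% in WT (37.7% higher and 39.2% lower) and 79.3% in Aim2-/- cells (39.1% higher and 40.2% lower), so that 8 and 9 of 10 were near the share of all genes. The median absolute log2 fold change of the 10 genes was 0.47 in WT and 0.48 in Aim2-/- cells, beside 0.94 and 0.97 over all genes tested. The signed median was 0.31 and 0.34, beside -0.05 and -0.04. No library of Treg overlapped a library of Tn for 8 of 10 genes in each genotype, beside 72.9% and 74.8% of all genes. With upper quartile scaling the median of all genes moved to -0.17 in WT and -0.20 in Aim2-/- cells, so that small rises depended on the scaling.

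**Figure D1:**
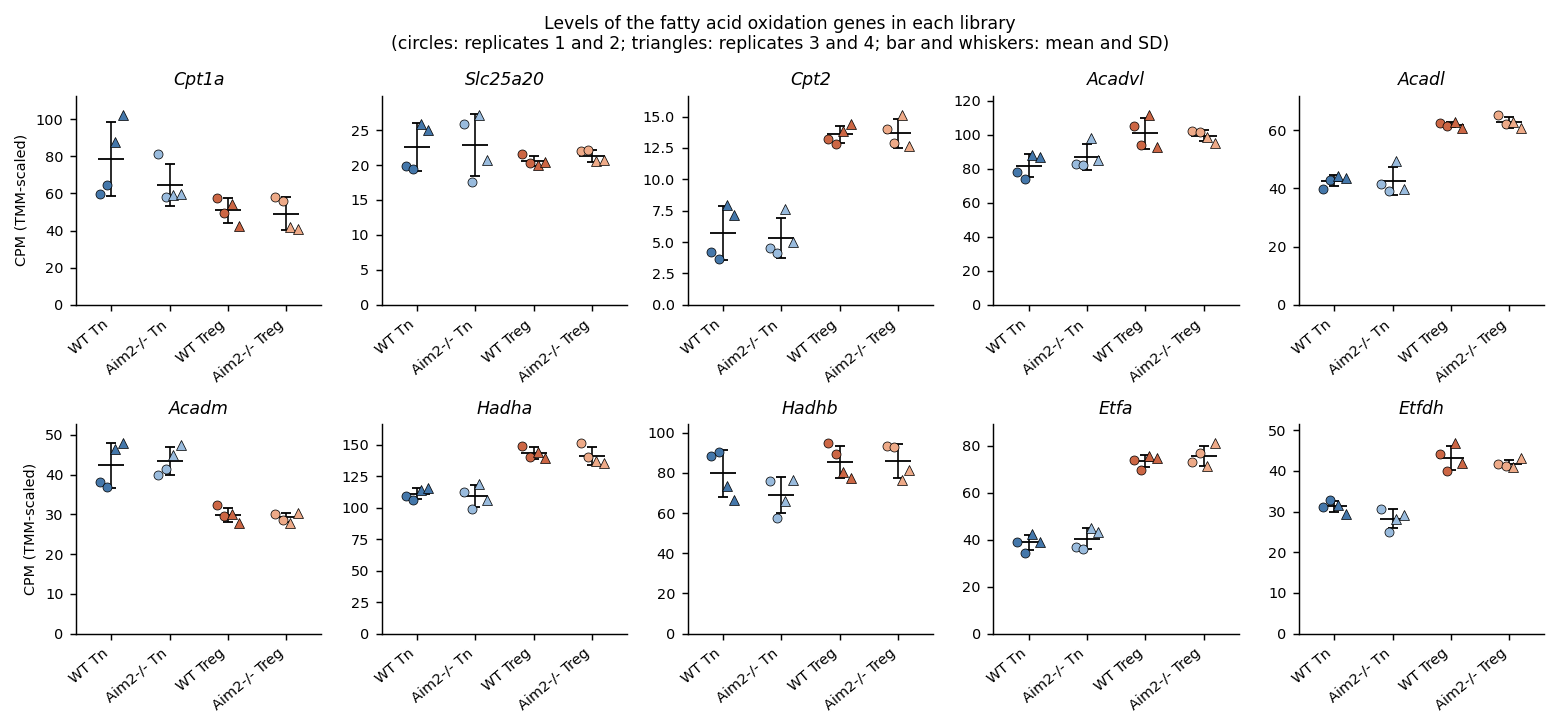
Level of each of the 10 genes in every library, in CPM scaled by TMM factors (vertical axis from 0), by group, with circles for replicates 1 and 2, triangles for replicates 3 and 4, and the group mean with its SD. Cpt2, Acadl, Hadha, Etfa and Etfdh stand higher in both Treg groups than in every Tn library, Acadm and Cpt1a stand lower, and the genotypes overlap within each state.

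The sequences at the starts of these genes were read from RefSeq (GRCm38.p6), which held a window from 250 bases before to 50 bases after the start for 10 of 10 members. The first shown is the stretch between Hadha and Hadhb, since both subunits of the trifunctional protein are made from neighbouring genes on opposite strands. Their RefSeq starts lie 273 bases apart, and the 85 bases between the GENCODE M21 gene models (chr5:30155163-30155247, + strand) are 69.4% G or C.
Hadha-Hadhb: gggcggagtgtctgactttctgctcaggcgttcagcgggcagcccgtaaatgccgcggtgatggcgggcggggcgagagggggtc
Whether Hadha and Hadhb, which share this stretch, changed unequally with culture was not tested.

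The windows were searched on both strands for 5 motifs. The core GCGCATGC, bound by NRF1, a regulator of nuclear genes for mitochondrial proteins, was present in 3 of 10 windows (Acadm, Etfa and Etfdh) and in 2.73% of the 32544 windows of all genes. The 30 bases around it are shown for these genes, in capitals where the core lies, because the genes that hold it include both directions of change. The stretches lie at chr3:153944783-153944812, chr9:55512330-55512359 and chr3:79628876-79628905, all on the - strand.
Acadm: gggagcaggacGCATGCGCagagggccttc
Etfa: gagggcgtggcGCGCATGCcagcgtctcgg
Etfdh: tgcttctaggGCGCATGCGCacacgcgaga
Etfa and Etfdh rose with culture and Acadm fell. In Etfdh the capitals hold overlapping matches on both strands. The ERR element TNAAGGTCA, the PPAR element (AGGTCA and a direct repeat of it with 1 base between) and the E-box CACGTG were in 0 of 10 windows, beside 1.28%, 0.0399% and 7.17% of all windows. The CCAAT box was in 3 of 10 (Cpt1a, Etfa and Etfdh), beside 37.4%. A match describes these letters only.

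Within the carnitine shuttle the outer and the inner acyltransferase changed in opposite directions. Cpt1a (chr19:3322334-3385733, + strand), the step that malonyl-CoA controls, had 60.0, 64.3, 88.0 and 102 CPM in WT Tn replicates 1 to 4 and 57.4, 49.4, 54.1 and 42.4 CPM in WT Treg. It had 81.4, 58.1, 59.0 and 60.0 CPM in Aim2-/- Tn and 58.1, 55.7, 42.0 and 40.9 CPM in Aim2-/- Treg. Every Treg library was below every Tn library of its genotype, in Aim2-/- cells by the narrow margin of 58.09 against 58.11 CPM, and the WT Tn libraries were widely spread. The fall was 1.58-fold in WT (log2 fold change -0.66 ± 0.17 SE, adjusted p = 0.0062) and 1.32-fold in Aim2-/- cells (-0.40 ± 0.15, adjusted p = 0.027). It rested on some libraries more than others. In WT it was -0.20 within replicates 1 and 2 (adjusted p = 0.073) and -1.01 within replicates 3 and 4 (adjusted p = 0.00073), and in Aim2-/- cells it was -0.29 (adjusted p = 0.14) and -0.53 (adjusted p = 0.00091). Without Aim2-/- Treg replicate 3 or replicate 4 the adjusted p in Aim2-/- cells was 0.12 and 0.11.

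Cpt2 (chr4:107903981-107923610, - strand), the matrix-side acyltransferase, had 4.18, 3.64, 7.98 and 7.12 CPM in WT Tn and 13.2, 12.9, 13.8 and 14.4 CPM in WT Treg. In Aim2-/- cells it had 4.50, 4.09, 7.62 and 4.99 CPM in Tn and 13.995, 12.9, 15.2 and 12.7 CPM in Treg. All 8 Treg libraries lay above all 8 Tn libraries. Cpt2 rose 2.32-fold in WT (log2 fold change 1.21 ± 0.24, adjusted p = 0.0010) and 2.57-fold in Aim2-/- cells (1.36 ± 0.19, adjusted p = 3.7e-05) over all 8 libraries, the largest of the 10 changes in each genotype. The rise in WT was 1.76 within replicates 1 and 2 (adjusted p = 1.2e-05) and 0.87 within replicates 3 and 4 (adjusted p = 0.0014), where the fall of Cpt1a (-1.01) was larger in size, and in Aim2-/- cells it was 1.65 and 1.14. Cpt2 was also the gene of lowest count, with 92 to 209 counts per library in Tn cells.

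Slc25a20 (chr9:108662088-108684641, + strand), the carrier between both enzymes, had 19.9, 19.4, 25.9 and 25.0 CPM in WT Tn and 21.6, 20.3, 19.98 and 20.4 CPM in WT Treg. It had 25.8, 17.6, 27.2 and 20.7 CPM in Aim2-/- Tn and 21.95, 22.2, 20.5 and 20.7 CPM in Aim2-/- Treg. The Treg libraries lay inside the range of the Tn libraries. The difference was -0.16 ± 0.11 on the log2 scale in WT (adjusted p = 0.21) and -0.11 ± 0.13 in Aim2-/- cells (adjusted p = 0.47). In WT it was 0.11 within replicates 1 and 2 (adjusted p = 0.25) and -0.36 within replicates 3 and 4 (adjusted p = 0.016), and with a correction for GC content and length it was -0.30 (adjusted p = 0.039).

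The 3 acyl-CoA dehydrogenases, which act on different chain lengths, did not move together. Acadl (chr1:66830839-66863277, - strand), a long-chain dehydrogenase, had 39.8, 43.0, 44.2 and 43.6 CPM in WT Tn and 62.4, 61.3, 62.8 and 60.9 CPM in WT Treg. In Aim2-/- cells it had 41.5, 39.0, 49.5 and 39.98 CPM in Tn and 65.4, 62.2, 62.7 and 60.8 CPM in Treg. The states did not overlap in either genotype. It rose 1.42-fold in WT (0.51 ± 0.07, adjusted p = 5.9e-05) and 1.47-fold in Aim2-/- cells (0.55 ± 0.09, adjusted p = 0.00013).

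Acadm (chr3:153922357-153944632, - strand), the medium-chain dehydrogenase, went the other way. It had 38.2, 36.8, 46.5 and 47.9 CPM in WT Tn and 32.2, 29.5, 30.1 and 27.9 CPM in WT Treg, and 39.99, 41.4, 45.0 and 47.5 CPM in Aim2-/- Tn and 29.99, 28.7, 27.9 and 30.4 CPM in Aim2-/- Treg. All 8 Treg libraries were below all 8 Tn libraries. It fell 1.44-fold in WT (-0.53 ± 0.11, adjusted p = 0.0012) and 1.497-fold in Aim2-/- cells (-0.58 ± 0.08, adjusted p = 5.9e-05). Within WT replicates 1 and 2 the fall was -0.26 (adjusted p = 0.020), and within replicates 3 and 4 it was -0.73 (adjusted p = 0.00035).

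Acadvl (chr11:70010183-70015411, - strand), the very-long-chain dehydrogenase, rose least. It had 78.3, 74.0, 88.0 and 86.7 CPM in WT Tn and 105, 94.2, 112 and 92.8 CPM in WT Treg, and 82.8, 82.1, 98.3 and 85.2 CPM in Aim2-/- Tn and 102, 102, 98.7 and 95.2 CPM in Aim2-/- Treg. The states did not overlap in WT and overlapped in Aim2-/- cells through Tn replicate 3. The rise was 1.21-fold in WT (0.27 ± 0.09, adjusted p = 0.017) and 1.13-fold in Aim2-/- cells (0.18 ± 0.08, adjusted p = 0.049). With upper quartile scaling it was 0.15 in WT (adjusted p = 0.20) and 0.01 in Aim2-/- cells (adjusted p = 0.89). The call was also lost without WT Tn replicate 1 (0.23) or 2 (0.20), and without Aim2-/- Tn replicate 1 (0.10), 2 (0.11) or 4 (0.11) or Treg replicate 2 (0.22). Within replicates 1 and 2 the rise was 0.41 in WT and 0.31 in Aim2-/- cells, and within replicates 3 and 4 the call was lost in both, with 0.20 (adjusted p = 0.12) and 0.07 (adjusted p = 0.57). RSEM gave Acadvl a count that was not whole in 16 of 16 libraries, so some of its reads were shared with another gene, and it overlaps Dvl2 on the opposite strand, which had 30.3 CPM. The strand setting of the counting is not given in the sources used here.

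The subunits of the trifunctional protein, which carries out the later steps on long chains, are present in equal numbers in the complex, as background. Hadha (chr5:30118304-30155162, - strand), the alpha subunit, had 109, 106, 114 and 116 CPM in WT Tn and 149.5, 140.4, 144 and 140.0 CPM in WT Treg. In Aim2-/- cells it had 113, 99.3, 119 and 106 CPM in Tn and 151, 141, 137 and 136 CPM in Treg. The Treg libraries were all above the Tn libraries. Hadha rose 1.26-fold in WT (0.34 ± 0.06, adjusted p = 0.00065) and 1.28-fold in Aim2-/- cells (0.36 ± 0.08, adjusted p = 0.0013).

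Hadhb (chr5:30155248-30184593, + strand), the beta subunit, had 88.6, 90.6, 73.6 and 66.4 CPM in WT Tn and 94.7, 89.7, 80.5 and 77.2 CPM in WT Treg, which overlapped. It had 75.9, 57.4, 65.8 and 76.2 CPM in Aim2-/- Tn and 93.4, 93.0, 76.6 and 81.4 CPM in Aim2-/- Treg, which just did not. The difference was 0.07 ± 0.12 in WT (adjusted p = 0.61), and in Aim2-/- cells it rose 1.24-fold (0.31 ± 0.11, adjusted p = 0.021). The Aim2-/- call was lost without Tn replicate 2 (0.19) or 3 (0.24), with upper quartile scaling (0.14) and with a correction for GC content and length (0.13). It was 0.49 within replicates 1 and 2 (adjusted p = 0.016) and was lost within replicates 3 and 4 (0.14, adjusted p = 0.27). In WT the sign turned with upper quartile scaling (-0.05) and with that correction (-0.02). The sign in WT also turned without WT Tn replicate 4 (-0.02). The counts of Hadhb were not whole in 15 of 16 libraries.

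The electron transfer genes rose in both genotypes. Etfa (chr9:55454508-55512243, - strand), the alpha subunit of the electron transfer flavoprotein, had 39.2, 34.5, 42.5 and 39.2 CPM in WT Tn and 73.9, 69.8, 75.6 and 75.0 CPM in WT Treg, and 37.1, 36.2, 45.0 and 43.3 CPM in Aim2-/- Tn and 73.3, 77.0, 71.5 and 81.1 CPM in Aim2-/- Treg. The lowest Treg library was above the highest Tn library by a wide margin in both genotypes. The rise was 1.85-fold in WT (0.89 ± 0.08, adjusted p = 4.1e-06) and 1.86-fold in Aim2-/- cells (0.90 ± 0.09, adjusted p = 3.2e-06). Its partner Etfb (chr7:43444083-43457800, + strand), the beta subunit and not one of the 10, rose from 18.7 to 21.5 CPM in WT Tn to 45.6 to 54.3 CPM in WT Treg (1.34 ± 0.09, adjusted p = 5.3e-07) and by 1.14 ± 0.13 in Aim2-/- cells (adjusted p = 9.7e-06).

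Etfdh (chr3:79603788-79629500, - strand), the ubiquinone oxidoreductase that takes up these electrons, had 31.1, 32.8, 31.7 and 29.5 CPM in WT Tn and 44.2, 40.0025, 46.7 and 41.9 CPM in WT Treg. In Aim2-/- cells it had 30.7, 25.0, 28.2 and 29.1 CPM in Tn and 41.8, 41.2, 40.8 and 43.0 CPM in Treg. All Treg libraries were above all Tn libraries. It rose 1.35-fold in WT (0.43 ± 0.08, adjusted p = 0.00064) and 1.46-fold in Aim2-/- cells (0.55 ± 0.09, adjusted p = 9.6e-05). Its counts were not whole in 11 of 16 libraries, and it overlaps 4930579G24Rik (11.6 CPM) on the opposite strand. Etfa, Etfb and Etfdh serve every acyl-CoA dehydrogenase, those of amino acid breakdown included, and Hadh (chr3:131233419-131272101, - strand), the dehydrogenase for shorter chains, did not pass the test in WT (-0.06 ± 0.11, adjusted p = 0.63) or Aim2-/- cells (-0.18 ± 0.12, adjusted p = 0.20). Hadh was called lower within replicates 3 and 4 in WT (-0.29, adjusted p = 0.041, beside 0.21 within replicates 1 and 2) and in Aim2-/- cells (-0.41, adjusted p = 0.0095, beside 0.04). It was also called lower in Aim2-/- cells with upper quartile scaling (-0.35) and with the correction for GC content and length (-0.27).

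**Figure D2:**
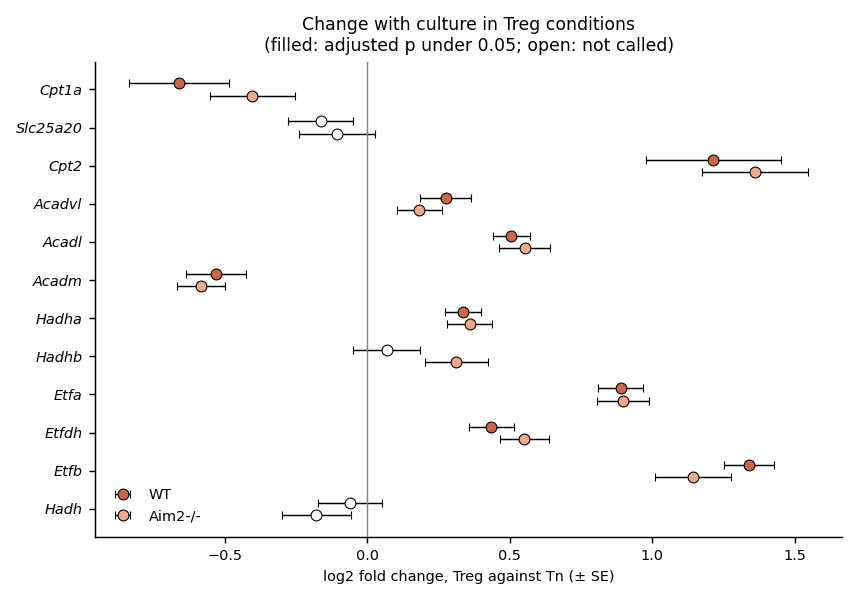
Log2 fold change of Treg against Tn (horizontal axis, whiskers ± SE) in WT and Aim2-/- cells for the 10 genes, Etfb and Hadh, filled where the adjusted p was under 0.05. Cpt2, Etfa and Etfb lie farthest to the right and Cpt1a and Acadm to the left, and each gene has the same sign in both genotypes.

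Ratios of counts within a library, which no scaling between libraries can move, showed the same shifts as a description; the pairs were chosen after the values were seen. Cpt2 to Cpt1a lay between 0.0552 and 0.129 in the 8 Tn libraries and between 0.230 and 0.361 in the 8 Treg libraries. Acadm to Acadl lay between 0.856 and 1.19 in Tn and between 0.444 and 0.517 in Treg. Etfdh to Etfa lay between 0.626 and 0.951 in Tn and between 0.531 and 0.618 in Treg, so that Etfa gained on Etfdh. Hadhb to Hadha overlapped between the states, with 0.553 to 0.854 in Tn and 0.552 to 0.661 in Treg. Acaca, the cytosolic acetyl-CoA carboxylase, was at 0.395 to 0.544 counts per Cpt1a count in Tn and 3.38 to 5.29 in Treg.

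**Figure D3:**
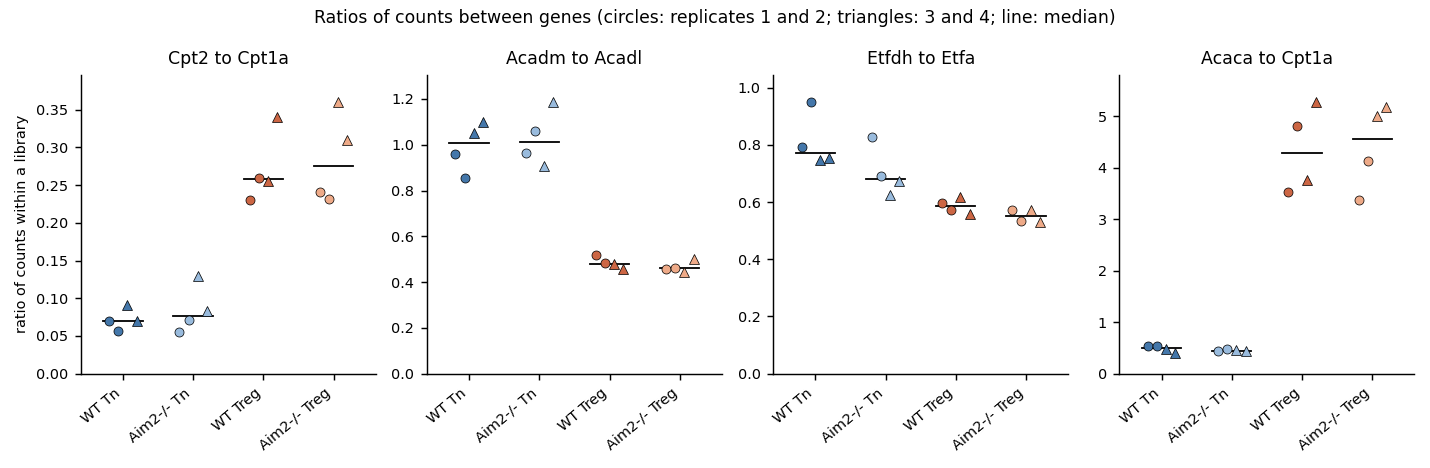
Ratio of the counts of a gene pair within each library (vertical axes from 0), by group, with circles for replicates 1 and 2, triangles for replicates 3 and 4, and the median as a line. Cpt2 to Cpt1a and Acaca to Cpt1a are higher in all Treg libraries, Acadm to Acadl is lower (0.444 to 0.517 against 0.856 to 1.19), and Etfdh to Etfa is lower by less.

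Per kilobase of exon, Acadvl stood highest in Tn cells and Cpt2 lowest. In WT Tn the mean level was 30.4 ± 2.503 CPM per kb (SD, n = 4) for Acadvl, followed by Acadl with 21.3 ± 0.97 and Etfa with 21.2 ± 1.796, whose ranges overlapped. Hadha (12.8), Hadhb (12.1), Acadm (10.8) and Cpt1a (10.3) came next, each overlapping its neighbour, then Slc25a20 (4.65) and Etfdh (4.17), which also overlapped, and Cpt2 with 2.40 ± 0.90. In WT Treg, Etfa led with 40.1 ± 1.43 CPM per kb and overlapped Acadvl with 37.6 ± 3.41, Acadl followed with 30.8 ± 0.44 and Hadha with 16.4 ± 0.51, and Slc25a20 was lowest with 4.24 ± 0.14. Acadm, Cpt1a, Etfdh and Cpt2 lay between 5.68 and 7.65 CPM per kb, each overlapping the next. The order depends on the length taken. By the longest transcript in place of the merged exons, Hadha stood above Acadl in both groups and Cpt2 was again lowest in WT Treg.

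By the median, the 10 genes varied more between Tn libraries than between Treg libraries. Acadvl and Etfdh in WT and Cpt1a in Aim2-/- cells went the other way. The median coefficient of variation over the 10 was 10.9% in WT Tn and 11.2% in Aim2-/- Tn, beside 10.6% and 9.96% over all genes at 10 CPM or more, and 5.53% in WT Treg and 4.52% in Aim2-/- Treg, beside 7.35% and 8.44%. Cpt2 had the widest spread in Tn, with 37.4% in WT Tn beside 5.04% in WT Treg. In Treg the widest was that of Cpt1a, with 12.8% in WT and 18.3% in Aim2-/- cells. After each group mean was taken out, the log2 levels of the 45 pairs of genes correlated positively over the 16 libraries in 37 pairs and above 0.5 in 21, for example 0.86 for Slc25a20 with Hadha. Hadhb was the exception, with 6 of the 8 negative values. These correlations share library composition and depth and are given as a description. Over the 16 libraries, group means included, the genes most like Cpt1a in log2 CPM among 14669 were Pik3r4, Dyrk1b and Syne1 (Pearson r of 0.92, 0.91 and 0.91). Those most like Acadm were Ttc5, Ankzf1 and Tbc1d10c (0.98 each), and those most like Hadha were Copg2, Abhd4 and Tnfrsf9 (0.98 each).

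Loss of Aim2 was not accompanied by a called change in any of the 10 genes. The edgeR test called 0 of 10 in Tn cells, beside 0.231% of all genes tested (0.134% higher and 0.0967% lower), and 0 of 10 in Treg cells, beside 0.219% (0.129% higher and 0.0908% lower). None reached an unadjusted p under 0.05 either (0 of 10 in each state), beside 1389 of 13441 genes tested in Tn and 305 of 13221 in Treg. DESeq2 also called 0 of 10, beside 127 of all genes in Tn and 52 in Treg. Limma-voom called 0 of 10, beside 30 and 26. Counts of 0 among 10 genes are near these shares. In Tn the smallest adjusted p was 0.59 and the values ran from -0.28 for Cpt1a to 0.10 for Acadvl on the log2 scale, with a median of -0.01 beside 0.01 over all genes. In Treg they ran from -0.05 for Etfdh to 0.05 for Slc25a20, with a median of -0.01 beside 0.00. For every gene the WT and the Aim2-/- libraries overlapped in both states, while 6.95% of all genes in Tn and 2.26% in Treg did not overlap.

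The intervals show what size of change these libraries leave possible. In Treg cells the 95% interval of Aim2-/- against WT was 0.93 to 1.099-fold for Acadl, 0.90 to 1.07-fold for Hadha, 0.93 to 1.13-fold for Etfa, 0.87 to 1.07-fold for Etfdh, 0.87 to 1.09-fold for Acadm, 0.87 to 1.104-fold for Acadvl, 0.93 to 1.15-fold for Slc25a20, 0.87 to 1.17-fold for Cpt2, 0.86 to 1.17-fold for Hadhb and 0.76 to 1.23-fold for Cpt1a. In Tn cells they were wider. Acadl was bounded at 0.85 to 1.17-fold and Hadha at 0.86 to 1.13-fold, but Cpt2 only at 0.57 to 1.51-fold and Cpt1a at 0.61 to 1.13-fold. Differences of the size seen with culture were thus outside the interval for Etfa and Acadl. In Tn they were inside it for Cpt1a and Acadvl. The Tn interval of Acadvl reached 0.32 on the log2 scale, beside culture changes of 0.27 in WT and 0.18 in Aim2-/- cells. The uncalled culture changes of Slc25a20, and of Hadhb in WT, were inside their Tn intervals as well. The called rise of Hadhb in Aim2-/- cells (0.31) was above its Tn interval of -0.52 to 0.11, which holds a fall of that size.

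The genotype difference of Cpt1a in Tn cells depended on the libraries compared. Over all 8 libraries it was -0.28 ± 0.18 (adjusted p = 0.61). Within replicates 1 and 2 it was 0.18 ± 0.16 (adjusted p = 0.62), where the WT libraries had 60.0 and 64.3 CPM and the Aim2-/- libraries 81.4 and 58.1. Within replicates 3 and 4 it was -0.69 ± 0.11 (adjusted p = 0.011), with 88.0 and 102 CPM against 59.0 and 60.0. That comparison of 2 libraries with 2 called 3.7% of all genes tested and 1 of the 10, Cpt1a. Other genes differed between these pairs of libraries without a call. Hadhb was at -0.41 ± 0.14 within replicates 1 and 2 (adjusted p = 0.25) and at 0.01 ± 0.11 within replicates 3 and 4, and Cpt2 was at 0.15 ± 0.21 and -0.27 ± 0.22. The labels do not say what the replicate numbers stand for. The chi-square of the counts per degree of freedom, larger for libraries less alike, was 13.5 for WT Tn replicates 1 and 2. It was 11.5 for replicates 3 and 4, and 73.3 to 94.2 for WT Tn pairs across them. In Aim2-/- Tn the closest pair was replicates 2 and 4 (21.9). In Aim2-/- Treg the chi-square was 10.3 for replicates 1 and 2, 13.6 for replicates 3 and 4, and 21.6 to 49.5 across them. In WT Treg it was 11.7 for replicates 1 and 2 and 19.4 to 40.5 for the other pairs. The tests and intervals take the 4 libraries of a group as independent, and whether they are was not tested.

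**Figure D4:**
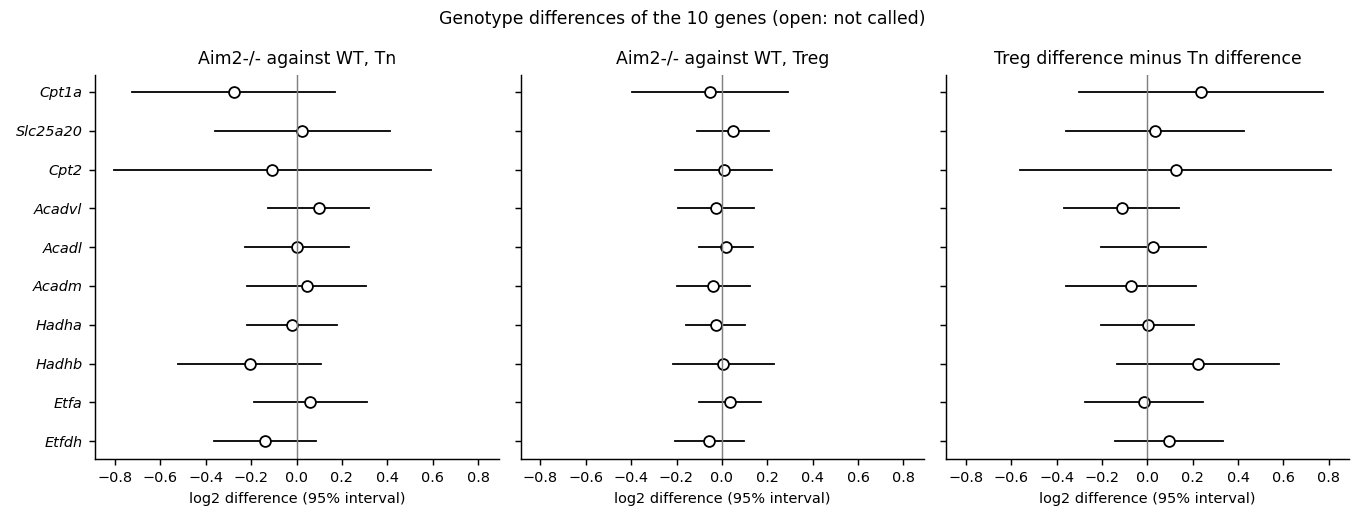
Log2 difference of Aim2-/- against WT with its 95% interval for each of the 10 genes in Tn (left) and Treg (middle), and the Treg difference minus the Tn difference (right). Every interval holds 0, and those of Cpt2 and Cpt1a are the widest in the left panel and in the right panel.

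The genotype difference was not shown to change with culture. The interaction term over all 16 libraries called 0 of 10 genes, beside 0.0205% of all genes tested. At an unadjusted p under 0.05 there were 0 of 10, beside 512 of 14669 genes. DESeq2 and limma-voom called 0 of 10 as well, beside 10 and 2 of all genes. It was 0.24 ± 0.25 for Cpt1a and 0.22 ± 0.16 for Hadhb, the largest values, and -0.11 ± 0.12 for Acadvl. The other genes lay between -0.07 and 0.12. That Hadhb passed the test with culture in Aim2-/- cells and not in WT does not show a difference between the genotypes, since its interaction had an adjusted p of 1.00.

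The lists of related genes, chosen with earlier results of these data known, covered the supply of fatty acids, the control of their entry, the other enzymes that oxidise them and their regulators. Their counts are to be read beside the shares of all genes tested, of which 37.7% rose and 39.2% fell in WT, and 39.1% rose and 40.2% fell in Aim2-/- cells. Of 13 genes of fatty acid uptake, binding and activation, 10 were tested in WT, 7 rose and 2 fell, with a median log2 fold change of 1.98. Fabp5, an intracellular fatty acid carrier, went from 3.38 to 6.88 CPM in WT Tn to 109 to 137 CPM in WT Treg (4.54 ± 0.25, adjusted p = 1.7e-07). Acsl6, a long-chain acyl-CoA synthetase, had 0 counts in every WT Tn library and 20.1 to 36.7 CPM in WT Treg, at least 238-fold higher against the floor of 3 counts per library. Cd36, a fatty acid receptor, also had 0 counts in WT Tn and was at 1.19 to 2.07 CPM in WT Treg, at least 12.7-fold higher. In Aim2-/- cells 8 of the 10 rose and 2 fell.

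Malonyl-CoA, the inhibitor of Cpt1a, is made by Acaca and Acacb and removed by Mlycd. Of 7 tested in the list of other carnitine genes and malonyl-CoA control, 1 rose and 3 fell in WT, and 1 rose and 5 fell in Aim2-/- cells. Acaca, acetyl-CoA carboxylase, rose from 32.6 to 41.6 CPM in WT Tn to 203 to 238 CPM in WT Treg (2.51 ± 0.10, adjusted p = 1.9e-08) and by 2.86 ± 0.11 in Aim2-/- cells. Acacb, the carboxylase of the mitochondrial membrane, named after its values were seen, was far lower in level, with 1.94 to 3.87 CPM in WT Tn and 0.889 to 2.90 CPM in WT Treg (-0.68 ± 0.37, adjusted p = 0.12), and it fell in Aim2-/- cells (-1.30 ± 0.39, adjusted p = 0.0092). Mlycd, malonyl-CoA decarboxylase, fell from 14.9 to 21.4 CPM to 3.91 to 5.37 CPM (-1.93 ± 0.16, adjusted p = 2.8e-06). Crot, a peroxisomal carnitine acyltransferase, fell by 1.45 on the log2 scale.

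The other matrix enzymes were split. Of 14 tested, 4 rose and 7 fell in WT, and 3 rose and 7 fell in Aim2-/- cells. Acot2, a mitochondrial thioesterase that releases free fatty acids from acyl-CoA, fell from 35.4 to 88.6 CPM in WT Tn to 3.50 to 5.38 CPM in WT Treg (-3.84 ± 0.33, adjusted p = 4.9e-06), and Acad10, an acyl-CoA dehydrogenase family member, fell by 2.28 on the log2 scale. Of 9 branched-chain and short-chain enzymes, 3 rose and 5 fell in each genotype. Ivd of leucine breakdown fell (-1.32 ± 0.11), while Oxct1 and Bdh1, which use ketone bodies, rose (1.58 ± 0.10 and 1.01 ± 0.10). Of 9 peroxisomal genes tested, 5 fell in each genotype and 2 rose in WT and 3 in Aim2-/- cells, with a median of -0.98 in WT. Scp2 (-1.32), Ehhadh (-1.29) and Acox3 (-1.26) fell most in WT.

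The lists of lipolysis and of regulators held genes that fell and genes that rose. Of 8 lipolysis genes tested, 5 fell and 1 rose in WT, and 4 fell and 1 rose in Aim2-/- cells. Lipa, the lysosomal acid lipase, fell from 77.2 to 103 CPM in WT Tn to 21.1 to 35.5 CPM in WT Treg (-1.75 ± 0.16), Plin2, a lipid droplet coat protein, fell by 1.66, and G0s2, an inhibitor of lipolysis, had 24 to 51 counts in WT Tn and 1 to 4 counts in WT Treg. Of 13 regulators tested, 9 fell and 2 rose in WT, and 8 fell and 3 rose in Aim2-/- cells. The coactivator Ppargc1b fell by 1.55, Foxo1 by 1.13 and the corepressor Nrip1 by 1.11 on the log2 scale in WT. Ppara, Pparg and Ppargc1a were too low to be tested, with at most 7 counts in any library. Of 10 PPAR targets, 3 were tested in WT. Angptl4, a secreted inhibitor of lipoprotein lipase, rose from 0.87 to 2.41 CPM to 10.52 to 19.3 CPM (3.01 ± 0.30), Ucp2 of the inner membrane rose by 0.49, and Plin2 fell. None of the genes in these lists was called for genotype in Tn or Treg cells or for the interaction.

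**Figure D5:**
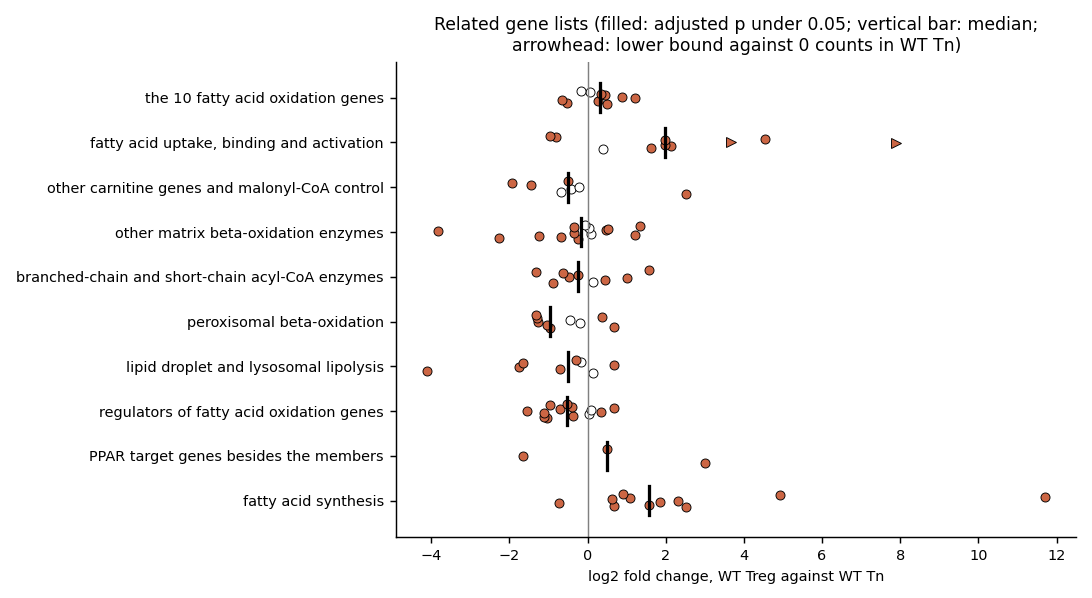
Log2 fold change of WT Treg against WT Tn (horizontal axis) for every tested gene of the 10 and of the related lists, 1 row a list, filled where the adjusted p was under 0.05, with a bar at the list's median and arrowheads for lower bounds of genes with 0 counts in WT Tn. The 10 genes lie between -0.66 and 1.21, the uptake and synthesis lists reach further right, and the peroxisomal median is -0.98. Scd1 of fatty acid synthesis is drawn at its fitted value of 11.72, which rests on at most 1 count in any WT Tn library.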

How the data were processed

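Per the labels and the study's methods, stranded mRNA libraries were mapped to GRCm38 with STAR and quantified with RSEM against a GENCODE annotation; versions of these tools are not given in the sources used here. The authors deposited 1 table per library of expected counts for 53090 genes, neither normalized nor filtered. Libraries were grouped by their titles. Expected counts were rounded to whole numbers. A gene entered a comparison if 4 or more of its libraries held a minimum of 10 counts. Comparisons used 8 libraries, or 16 for the interaction, and edgeR 4.0.16 with TMM factors, robust dispersions and its quasi-likelihood F test, which is two-sided, with Benjamini-Hochberg adjustment over all genes tested and a threshold of 0.05. The SE is the log2 fold change over the root of F, and 95% intervals use 6 residual degrees of freedom (12 for the interaction). DESeq2 1.42.0, limma 3.58.1 (voom), other scalings, filters and sample choices were alternatives. Some of the fits were also run on simulated counts with known changes, for genotype in Tn only. The simulated libraries were independent, so this does not cover likeness between the real libraries. Lengths and coordinates came from GENCODE M21 (GRCm38), with an entry for 52489 genes (98.9%). Log2 CPM for correlations used a prior count of 2. The 10 genes, the related lists and the motifs were chosen with earlier results of these data known. Named from each related list were the up to 3 genes with the largest absolute change among those called with culture in WT, at 1 CPM or more in a state and with no overlap of libraries, and any gene called for genotype; Etfb, Hadh and Aim2 were always named. Symbols were taken from the deposited tables.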

Additional observations from a re-analysis of the deposited data

Results flagged for a closer look

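Cpt1a in Aim2-/- Tn was far from the other libraries of its group in replicate 1, with 81.4 CPM beside 58.1 to 60.0 CPM in the other libraries. The gap was 0.921 of the range of the group, above Dixon's 95% critical value for 4 samples. It was the only such value among 40 groups of 4 libraries (10 genes in 4 groups), and chance flags about 1 in 20. Without this library the genotype difference of Cpt1a in Tn was -0.41 on the log2 scale (adjusted p = 0.40, edgeR).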

How the results depend on the processing

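The number of the 10 genes called lay between 7 and 9 for culture in WT and in Aim2-/- cells under every alternative, leaving out each library included. It was 0 for genotype in Treg and for the interaction under all of them, and 0 for genotype in Tn except within replicates 3 and 4, where it was 1 (Cpt1a). Same-numbered libraries deviated together with correlations from 0.02 to 0.30 for genotype in Tn, from -0.01 to 0.40 in Treg, and from -0.04 to 0.13 for culture. The labels do not give the numbers as pairs, and the main fits left them out. With a term for the number (replicate block), genes with an unadjusted edgeR p under 0.05 went from 305 to 1104 for genotype in Treg. In Tn they went from 1389 to 1726. Genes called went from 29 to 41 in Treg and from 31 to 29 in Tn. Whether same-numbered libraries share a source was not tested. Adding the replicate block gave counts of 8 for culture in WT, 8 in Aim2-/- cells (the call of Acadvl was lost, 0.19 with adjusted p = 0.058) and 0 for genotype in Tn, in Treg and for the interaction. Compared with the fit on all libraries, no alternative turned the sign of a called value, and of 2464 values of single genes 112 that were called in neither fit turned, all of them 0.213 or less in size. Between replicates 1 and 2 and replicates 3 and 4 the sign turned for values called in the latter: Cpt1a for genotype in Tn (0.18 and -0.69), Slc25a20 for culture in WT (0.11 and -0.36) and Hadh for culture in WT (0.21 and -0.29) and Aim2-/- cells (0.04 and -0.41). The spread between Tn libraries limits the genotype comparison, and the part of low counts in it was not tested. The cause of the differences between replicates 1 and 2 and replicates 3 and 4 was not tested.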

Other observations

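Genes of fatty acid synthesis, chosen as a contrast to oxidation, mostly rose with culture. Of 11 tested, 10 rose and 1 fell in each genotype, beside 37.7% of all genes that rose in WT and 39.1% in Aim2-/- cells. The median log2 fold change of the list was 1.56 in WT and 1.58 in Aim2-/- cells. Scd2, a stearoyl-CoA desaturase, went from 30.8 to 44.8 CPM in WT Tn to 813 to 1478 CPM in WT Treg (4.92 ± 0.23, adjusted p = 6.7e-08, edgeR). Scd1, another desaturase, had at most 1 count in any WT Tn library and 42.4 to 186 CPM in WT Treg. Elovl5, an elongase of polyunsaturated fatty acids, was the gene that fell (-0.73 ± 0.07 in WT), named after its value was seen. None of these genes was called for genotype in either state. In Tn, 4 of the 10 tested had an unadjusted p under 0.05 by edgeR, beside 1389 of 13441 genes. The smallest was 0.0012, and the smallest adjusted p was 0.23. The Tn difference of Aim2-/- against WT was negative for 7 of the 10 and positive for 3. Its median was -0.11 on the log2 scale, beside 0.01 over all genes. For 2 of the 10 the WT and Aim2-/- Tn libraries did not overlap, beside 6.95% of all genes. In Treg, 0 of 11 had an unadjusted p under 0.05, beside 305 of 13221 genes.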
